A study of Mus musculus with 15 samples.

Results

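The genes described are 33 mouse genes of the tricarboxylic acid (TCA) cycle and of the steps by which pyruvate and glutamate carbon enters it, taken by symbol out of the 55341 symbols of the deposited count table. The rule names them by symbol and uses no measured value, but the members were chosen with earlier results of these data known. They span the cycle enzymes other than aconitase and succinate dehydrogenase, the pyruvate dehydrogenase (PDH) complex with its kinases and phosphatases, the enzymes that carboxylate, decarboxylate or export cycle intermediates, and the glutamate enzymes. Of the 33, 32 had enough counts to be tested. Pdk4, a PDH kinase, had 0 of 218 M counts in all 15 libraries together, and 3 counts, the limit that a count of 0 allows, would be 0.187 to 0.244 counts per M (CPM) in a single library.

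The TCA cycle runs in the mitochondrial matrix, where acetyl groups are oxidised and the electrons passed to NADH and FADH2. Pyruvate enters as acetyl-CoA through the PDH complex, which its kinases switch off and its phosphatases switch on, or as oxaloacetate through pyruvate carboxylase, and glutamate enters as 2-oxoglutarate. Several steps have a cytosolic isoenzyme beside the mitochondrial one, and such pairs carry reducing equivalents and carbon across the inner mitochondrial membrane. Proliferating tumour cells are known to draw on these steps for aspartate, citrate and NADPH as well as for energy.

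RNA was sequenced from 6DT1, a mouse mammary cancer cell line from the FVB/N1 strain, in 4 groups. These were Clic4 knockout (KO) cells given 1 µM hydrogen peroxide (H2O2) for 24 h (n = 3), untreated KO cells (n = 4), wild-type (WT) cells given the same H2O2 (n = 4) and untreated WT cells (n = 4). Clic4 encodes a chloride intracellular channel protein, and the comparison asks how its loss and a low dose of peroxide alter transcription. The sources used here do not say how many KO clones were used, nor that replicates were separate cultures, so p-values measure the spread between these libraries, which may be technical.

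Values with ± below are means with SD over the 4 libraries of a group (3 for H2O2-treated KO cells). Libraries held 12.3 to 16.0 M counts, and the 33 genes together took 0.450% to 0.475% of them as group means. Clic4 itself stood at 68.4 to 75.9 CPM in H2O2-treated KO libraries and 64.2 to 75.1 CPM in untreated KO libraries, against 313 to 317 CPM in H2O2-treated WT and 316 to 327 CPM in untreated WT libraries. Untreated WT replicate 9 is titled as wild type while its genotype field says knockout, and its Clic4 level lay in the WT range. It was kept as WT. It also stood apart in transcripts of other cell types: of 7 immune markers with any counts, 5 were highest in it. Ptprc, the pan-leukocyte phosphatase, was at 4.52 CPM there and at most 0.0742 CPM in any other library. Pecam1, an endothelial adhesion molecule, was at 2.36 CPM, against at most 0.347 CPM elsewhere. The erythroid list summed to 1.01 CPM, against at most 0.209 CPM elsewhere, which was Alas2 in untreated WT replicate 11. Without this library, 14 of the 32 tested genes were higher and 6 lower in untreated KO cells, against 15 and 6 with it, and 1 call (Mdh2) was lost. Of 8 epithelial markers, 4 passed the filter (Krt8, Krt18, Krt19 and Erbb2). Epcam, Cdh1 and Cldn3 reached at most 0.144 CPM in any library and Cldn7 was at 0, so the defining adhesion markers of epithelium were at or near 0. The summed epithelial list was 949 to 1008 CPM in untreated KO and 1030.3 to 1095 CPM in untreated WT libraries. This sum hides genes that moved apart: of the 4 tested, 1 was higher and 2 lower in untreated KO cells. Krt19 had 156 ± 6.23 CPM in untreated KO and 54.2 ± 4.09 CPM in untreated WT cells, while Krt18 had 153 ± 4.89 CPM in KO and 334 ± 1.65 CPM in WT cells. Of the tested markers of other lists in untreated cells, 1 of 3 immune markers was higher and 1 lower, 1 of 2 endothelial markers higher and 1 lower, and both fibroblast markers lower. Of these 2, Pdgfra and Col1a1, Col1a1 was very low, at 0.459 ± 0.0975 CPM in KO and 0.886 ± 0.389 CPM in WT cells. Among fibroblast markers that failed the filter, all near 0, Col1a2, Col3a1 and Dcn had higher means in KO cells and Fap a lower one. Sums of other lists also differed by genotype without treatment. The 8 immune markers, of which 3 passed, summed to 295 to 327 CPM in KO and 401 to 446 CPM in WT, the 7 fibroblast markers (2 passed) to 11.3 to 13.9 and 19.8 to 22.0 CPM, and the 5 endothelial markers (2 passed) to 3.37 to 4.11 and 23.1 to 25.0 CPM. With H2O2 the sums in KO and WT libraries were 999 to 1060.1 and 1054 to 1097 CPM for epithelial, 292 to 309 and 413 to 438 CPM for immune, 11.6 to 12.4 and 16.9 to 22.0 CPM for fibroblast, and 3.85 to 4.31 and 23.2 to 25.9 CPM for endothelial markers. The 6 erythroid and 6 adipocyte markers all failed the filter, with sums of at most 1.01 CPM. Cd68 made up most of the immune sum, Pdgfra of the fibroblast sum and Vwf of the endothelial sum in WT libraries, while Lum, Plin1, Lep and Cfd were at 0 in every library. The part of these differences in the results below was not tested, and in bulk RNA fewer cells of a type and less RNA per cell cannot be told apart.

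KO and WT cells differed in both directions along the pathway, mostly by small amounts. As the number of KO clones is not given, loss of Clic4 and other differences between KO and WT cells cannot be told apart. In untreated cells the largest rise was in Suclg2, the GTP-forming succinyl-CoA synthetase subunit, and the largest fall was in Mdh1, the cytosolic malate dehydrogenase. All 3 subunits of the NAD-dependent isocitrate dehydrogenase rose, while citrate synthase did not pass the test. The partners of all 4 pairs of cytosolic and mitochondrial isoenzymes among the genes, Idh1 and Idh2, Me1 and Me2, Got1 and Got2, and Mdh1 and Mdh2, were called in opposite directions, the call of Mdh2 being lost on leaving out single libraries. Since 33.9% of all genes were called higher and 32.9% lower, and no other pairs were examined, nothing particular to these pairs is read from this. Of the 32 tested genes, 15 were higher and 6 lower in untreated KO than in untreated WT cells, by edgeR's quasi-likelihood test at a Benjamini-Hochberg adjusted p under 0.05 over all genes tested, which is the test behind every adjusted p of a gene below.

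That makes 65.6% of the tested genes called, against 66.8% of all 13085 genes tested, so the share of calls was near that of the whole transcriptome and is not particular to these genes. The shares by direction were 33.9% of all genes higher and 32.9% lower. Groups did not overlap for 20 of the 32 genes, against 58.5% of all genes. The median absolute log2 fold change was 0.19, against 0.30 over all genes tested, and the signed medians were 0.06 and 0.00. Only Suclg2 and Mdh1 were called and changed by at least 1.5-fold, a size that 24.4% of all genes reached. Tested against a fold of 1.2 instead of no change, 8 genes were higher and 2 lower, against 18.7% and 18.1% of all genes.

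**Figure D1:**
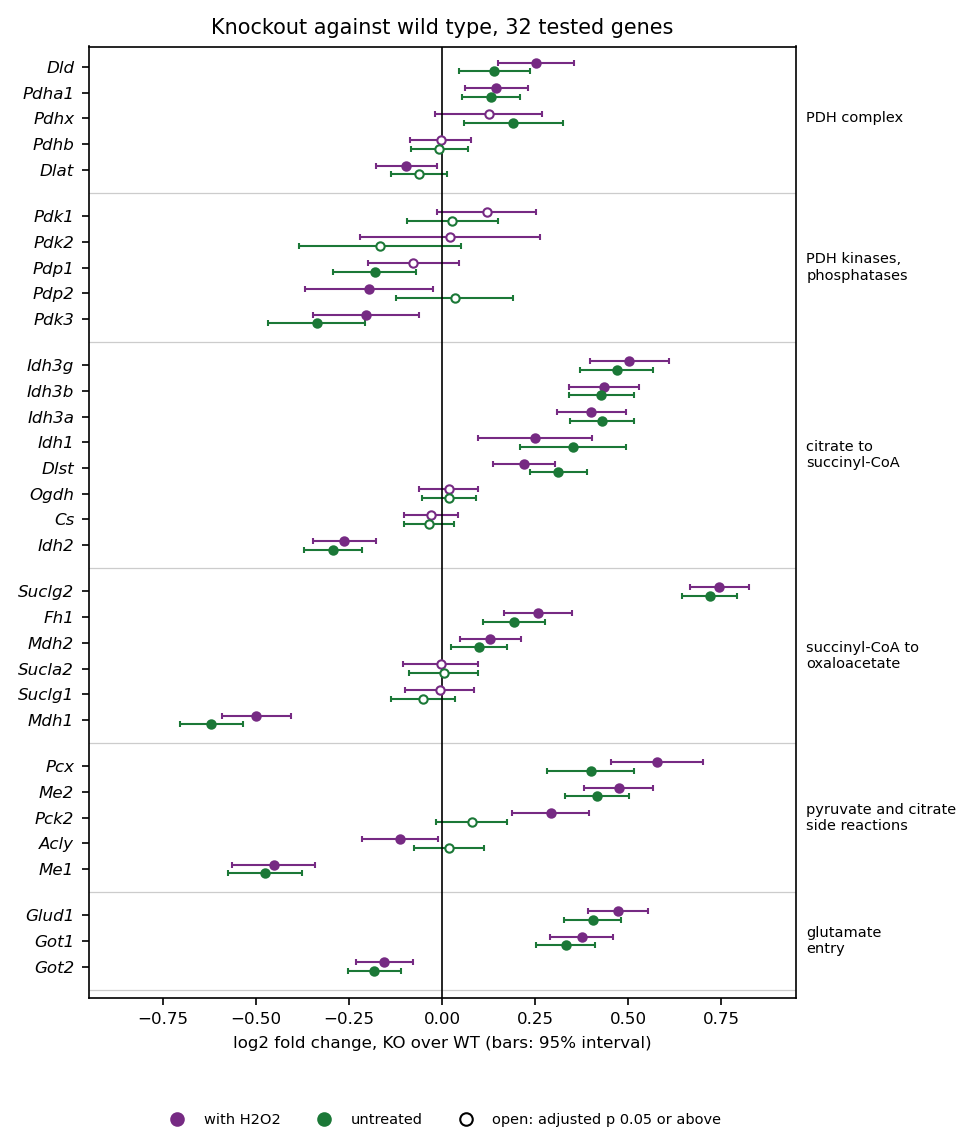
Log2 fold change, KO over WT, of the 32 tested genes in untreated and in H2O2-treated cells, grouped by role, with bars for 95% intervals and open points for adjusted p of 0.05 or above. Suclg2 lies farthest right and Mdh1 farthest left in both.

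Suclg2 makes the GTP-specific beta subunit of succinyl-CoA synthetase, Sucla2 the ATP-specific one, and Suclg1 the alpha subunit both share. Suclg2 (chromosome 6, 95473009 to 95718800, minus strand, mm10) had 268, 269.9, 264 and 257 CPM in the 4 untreated KO libraries, against 152, 164, 163 and 163 CPM in the 4 untreated WT libraries. With H2O2 it had 267, 264 and 271 CPM in KO and 155, 167, 156 and 160.1 CPM in WT libraries. Every KO library lay above every WT library. Its log2 fold change was 0.72 in untreated cells (SE 0.0358, adjusted p = 2.83e-16) and 0.75 with H2O2 (SE 0.0384, adjusted p = 7.31e-16). A near-identical pseudogene, Gm15163, held counts equal to 1.94% of those of Suclg2, and adding them gave 0.71 and 0.74. Its sister subunit Sucla2 had 56.0 ± 1.90 CPM in untreated KO cells and 55.9 ± 1.81 CPM in untreated WT cells (log2 fold change 0.00, 95% interval -0.09 to 0.10), and Suclg1 had 88.9 ± 2.69 CPM in untreated KO cells and 92.2 ± 2.55 CPM in untreated WT cells (-0.05, -0.14 to 0.03). Neither of these passed the test, and the difference between the beta subunits is tested as a ratio further on.

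Mdh1 makes cytosolic malate dehydrogenase and Mdh2 the mitochondrial one, and together they form the malate arm of the malate-aspartate shuttle. Mdh1 (chromosome 11, 21556787 to 21572367, minus strand) had 288, 285, 261 and 304 CPM in untreated KO libraries, against 456, 448, 424 and 421 CPM in untreated WT libraries. With H2O2 it had 281, 287 and 270.4 CPM in KO and 415, 390.2, 385 and 389 CPM in WT libraries. The groups did not overlap under either treatment. The log2 fold change was -0.62 in untreated cells (SE 0.0415, adjusted p = 1.87e-13) and -0.50 with H2O2 (SE 0.0453, adjusted p = 1.38e-10). An opposite-strand gene, Wdpcp, shares 52 exon bases with Mdh1, and its counts equal 1.80% of those of Mdh1. Mdh2 had 266 ± 8.62 CPM in untreated KO cells and 249 ± 10.7 CPM in untreated WT cells. Its log2 fold change of 0.10 passed in untreated cells (adjusted p = 0.0201) but the groups overlapped, and the call was lost without KO replicate 3 (0.07, adjusted p = 0.0892), WT replicate 9 (0.08, adjusted p = 0.0815) or WT replicate 11 (0.08, adjusted p = 0.0771). With H2O2 it was 0.13 (adjusted p = 0.00579). Fh1, fumarase, was higher in KO cells in both settings, with log2 fold changes of 0.19 untreated and 0.26 with H2O2.

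**Figure D2:**
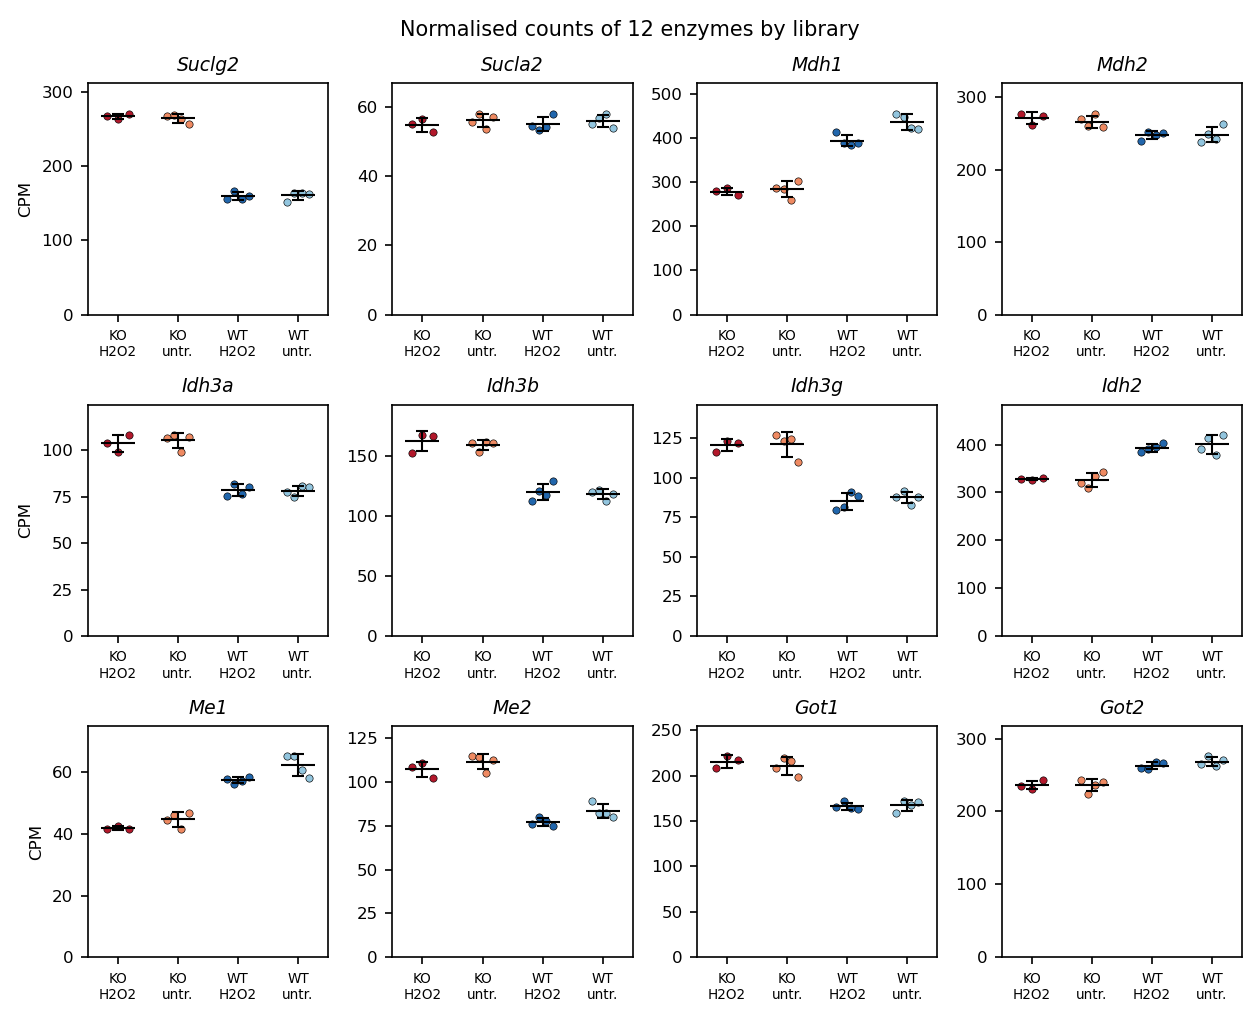
CPM in every library, in panels by gene with the axis starting at 0, with the groups along the horizontal axis, a long line at the mean and bars for the SD. Suclg2 lies between 257 and 271 CPM in KO and between 152 and 167 CPM in WT libraries, and Mdh1 lies lower in KO than in WT libraries with no overlap.

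The NAD-dependent isocitrate dehydrogenase, which commits citrate carbon to the cycle, is built of Idh3a (the catalytic alpha subunit), Idh3b and Idh3g. They lie on chromosomes 9, 2 and X and rose by nearly the same factor. In untreated cells Idh3a had 107, 108, 99.4 and 107 CPM in KO libraries, against 77.6, 74.7, 80.6 and 80.2 CPM in WT libraries. Idh3b had 160.4, 153, 161 and 161 CPM in KO and 120.0, 121, 113 and 118 CPM in WT libraries, and Idh3g had 127, 123, 124 and 109.6 CPM in KO and 87.7, 91.8, 82.7 and 87.4 CPM in WT libraries. For all 3 subunits each KO library exceeded each WT library. The log2 fold changes were 0.43 for Idh3a (adjusted p = 5.36e-10), 0.43 for Idh3b (adjusted p = 6.85e-10) and 0.47 for Idh3g (adjusted p = 1.23e-09). With H2O2 they were 0.40, 0.44 and 0.50, all called. Idh3b shares 5 exon bases with Nop56 on the opposite strand, and the strand setting of the counting is not given in the sources used here.

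The promoter windows of the 2 genes with the largest changes and of the 2 Idh3 subunits found in the promoter table are shown because these genes moved farthest or moved together. The sequences are from RefSeq on GRCm38.p6, 250 bases before to 50 after each gene's start, read 5′ to 3′ on the gene's own minus strand. These starts are RefSeq's and are not the outermost ends of the gene models given above. Capitals mark matches to the motifs searched on both strands, which were the E-box (CACGTG), the CCAAT box (CCAAT), the ERR half-site (AAGGTCA), the NRF1 motif and the core of the antioxidant response element (TGACNNNGC). Windows were found for 30 of the 33 symbols, and none was found for Idh3a, Pdp1 or Me2.
Suclg2, chr6:95718797-95719096: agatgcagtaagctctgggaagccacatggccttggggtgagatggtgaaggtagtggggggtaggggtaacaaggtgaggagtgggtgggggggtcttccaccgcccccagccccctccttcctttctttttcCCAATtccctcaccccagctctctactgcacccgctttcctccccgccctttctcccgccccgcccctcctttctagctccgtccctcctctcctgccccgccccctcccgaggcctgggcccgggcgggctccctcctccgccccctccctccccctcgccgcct
Mdh1, chr11:21571885-21572184: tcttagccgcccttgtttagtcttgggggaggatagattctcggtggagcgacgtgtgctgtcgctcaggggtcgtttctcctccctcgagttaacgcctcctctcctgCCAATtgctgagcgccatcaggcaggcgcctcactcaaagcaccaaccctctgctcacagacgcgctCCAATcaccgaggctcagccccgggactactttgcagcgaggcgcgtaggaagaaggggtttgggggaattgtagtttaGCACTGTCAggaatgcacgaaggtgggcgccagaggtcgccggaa
Idh3b, chr2:130284402-130284701: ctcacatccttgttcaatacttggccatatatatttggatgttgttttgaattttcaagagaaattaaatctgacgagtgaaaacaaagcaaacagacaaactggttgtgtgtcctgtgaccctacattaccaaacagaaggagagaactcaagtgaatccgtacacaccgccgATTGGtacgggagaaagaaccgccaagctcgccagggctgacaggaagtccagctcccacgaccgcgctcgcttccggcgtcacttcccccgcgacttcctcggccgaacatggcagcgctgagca
Idh3g, chrX:73786848-73787147: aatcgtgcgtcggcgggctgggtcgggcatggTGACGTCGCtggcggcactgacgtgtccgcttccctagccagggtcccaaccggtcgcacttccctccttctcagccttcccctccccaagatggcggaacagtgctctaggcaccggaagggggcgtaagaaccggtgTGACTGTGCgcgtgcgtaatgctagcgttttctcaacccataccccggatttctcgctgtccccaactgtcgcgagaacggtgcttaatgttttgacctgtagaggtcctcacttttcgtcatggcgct

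In these windows Suclg2 and Idh3b each held 1 CCAAT box, Mdh1 held 2 CCAAT boxes and 1 antioxidant element core, and Idh3g held 2 antioxidant element cores and no CCAAT box. So the rising Suclg2 and the falling Mdh1 both carried a CCAAT box, and the falling Mdh1 and the rising Idh3g both carried an antioxidant element core. The 30 matched genes have 40 windows. Of these, 26 held a CCAAT box, against 37.4% of all 32851 windows. Antioxidant element cores were in 6 (of Dlst, Idh3g, Mdh1, Me1, Pdhb and Sucla2), against 12.4% of windows, and E-boxes also in 6 (of Ogdh, Pcx, Pdk2 and Pdp2), against 7.15%. ERR half-sites were in 2 windows (of Got1 and Ogdh), against 4.72%, and NRF1 motifs in 2 (of Dld and Sucla2), against 4.60%. Some genes have more than 1 window, so the windows are not independent. A match is a run of letters and not a shown binding site.

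The other isocitrate dehydrogenases use NADP and moved apart. Idh1, the cytosolic and peroxisomal enzyme, had 138, 148, 137 and 182 CPM in untreated KO libraries, against 114, 116, 125 and 120.0 CPM in untreated WT libraries. All KO libraries lay above the WT libraries, and replicate 4 stood above the other KO libraries. The log2 fold change was 0.35 (SE 0.0672, adjusted p = 0.000188), and 0.23 (adjusted p = 3.07e-05) without KO replicate 4 and WT replicate 9 together, an alternative chosen after seeing the data. Idh2, the mitochondrial enzyme, was lower, with 327 ± 15.1 CPM in untreated KO cells and 400.5 ± 19.8 CPM in untreated WT cells (log2 fold change -0.29, adjusted p = 1.12e-07). With H2O2 the log2 fold changes were 0.25 for Idh1 and -0.26 for Idh2, both called.

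Citrate synthase, 2-oxoglutarate dehydrogenase and its shared components frame this span, and not all of them moved. Citrate synthase, Cs, which joins acetyl-CoA to oxaloacetate, had 299 ± 5.87 CPM in untreated KO cells and 307 ± 7.76 CPM in untreated WT cells (log2 fold change -0.04, 95% interval -0.10 to 0.03). Of the 2-oxoglutarate dehydrogenase complex, Ogdh (the first, rate-setting component) had a log2 fold change of 0.02 (95% interval -0.05 to 0.09). Its second component Dlst rose, with 166 ± 5.20 CPM in untreated KO cells and 134 ± 5.72 CPM in untreated WT cells (log2 fold change 0.31, adjusted p = 2.92e-08) and 0.22 with H2O2. Dld, the flavin component that this complex shares with PDH, rose by 0.14 (adjusted p = 0.00948), a call that was lost without KO replicate 2 (0.11, adjusted p = 0.0535) or WT replicate 12 (0.09, adjusted p = 0.0976). With H2O2 Dld rose by 0.25 (adjusted p = 7.43e-05).

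The PDH complex converts pyruvate to acetyl-CoA. In untreated cells its E1 alpha subunit Pdha1 rose slightly, with 216 ± 6.27 CPM in untreated KO cells and 198 ± 7.30 CPM in untreated WT cells (log2 fold change 0.13, adjusted p = 0.00368), and the E3-binding protein Pdhx had 21.0 ± 1.04 CPM in untreated KO cells and 18.4 ± 0.282 CPM in untreated WT cells (0.19, adjusted p = 0.0115). Groups did not overlap for either gene. The Pdhx call was lost without KO replicate 4 and WT replicate 9 together (0.17, adjusted p = 0.0612). The E1 beta subunit Pdhb (log2 fold change -0.01, 95% interval -0.08 to 0.07) and the E2 core Dlat (-0.06, -0.14 to 0.01) did not pass. With H2O2, Pdha1 was higher in KO cells by 0.15 (adjusted p = 0.00318), while Pdhx had 0.13 (adjusted p = 0.118) and passed without KO replicate 8 (0.18, adjusted p = 0.0447).

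PDH kinases hold the complex inactive, and the phosphatases Pdp1 and Pdp2 reactivate it. In untreated cells Pdk3 fell to 20.4 ± 1.01 CPM in KO cells, against 25.8 ± 1.37 CPM in WT cells (log2 fold change -0.34, adjusted p = 3.35e-05). Pdp1 fell to 26.1 ± 0.661 CPM in KO cells, against 29.7 ± 1.13 CPM in WT cells (-0.18, adjusted p = 0.00448). Pdk1 (0.03, 95% interval -0.10 to 0.15), Pdk2 (-0.17, -0.38 to 0.05) and Pdp2 (0.03, -0.12 to 0.19) did not pass. So 1 kinase and 1 phosphatase were lower and no regulator was higher. Pdk2 was the least expressed of the tested genes per length, at 2.06 ± 0.0950 RPKM (reads per kilobase per M) in untreated KO cells and 2.36 ± 0.342 RPKM in untreated WT cells. Pdk1 led the kinases on the same scale, at 15.6 ± 1.71 and 15.6 ± 0.640 RPKM. With H2O2 the log2 fold changes were -0.21 for Pdk3 (adjusted p = 0.0111, and 0.0544 without KO replicate 7), -0.08 for Pdp1 (adjusted p = 0.260) and 0.12 for Pdk1 (adjusted p = 0.105). Pdk1 passed without KO replicate 3 (0.12, adjusted p = 0.0350) or KO replicate 7 (0.17, adjusted p = 0.0437).

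Malic enzymes turn malate into pyruvate, Me1 in the cytosol with NADP and Me2 in mitochondria with NAD. In untreated cells Me1 had 44.6, 46.1, 41.4 and 46.7 CPM in KO libraries, against 65.1, 65.1, 60.5 and 58.0 CPM in WT libraries. Me2 had 115, 114, 105 and 113 CPM in KO libraries, against 89.3, 82.3, 82.3 and 80.2 CPM in WT libraries. The groups did not overlap for either gene, and the direction was opposite. The log2 fold changes were -0.48 for Me1 (adjusted p = 1.38e-09) and 0.42 for Me2 (adjusted p = 8.46e-10), and -0.45 and 0.47 with H2O2. Me1 has 3 near-identical copies, Gm7049, Gm48795 and Gm7329, whose counts equal 19.3% of its own. Reads may be split among them, and with their counts added the log2 fold change was -0.50 under either treatment.

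Pyruvate carboxylase, Pcx, which refills oxaloacetate, had 50.01, 51.5, 52.6 and 45.8 CPM in untreated KO libraries, against 39.6, 37.7, 33.7 and 40.6 CPM in untreated WT libraries. With H2O2 it had 61.5, 57.4 and 56.2 CPM in KO and 38.1, 39.2, 40.5 and 38.9 CPM in WT libraries. KO libraries lay above WT libraries in both settings, with log2 fold changes of 0.40 (adjusted p = 5.47e-07) and 0.58 (adjusted p = 2.29e-09). Pck2, mitochondrial phosphoenolpyruvate carboxykinase, had 0.08 in untreated cells (adjusted p = 0.132) and 0.29 with H2O2 (adjusted p = 1.04e-05). Without KO replicate 4 it passed in untreated cells too (0.13, adjusted p = 0.0100). Acly, which cleaves exported citrate to cytosolic acetyl-CoA, had 0.02 in untreated cells (95% interval -0.08 to 0.11) and -0.11 with H2O2 (adjusted p = 0.0477).

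Glutamate enters the cycle through glutamate dehydrogenase (Glud1) or the aspartate aminotransferases, Got1 in the cytosol and Got2 in mitochondria. All 3 genes changed. Glud1 had 409, 433, 397 and 399.7 CPM in untreated KO libraries, against 310.0, 312, 323 and 293 CPM in untreated WT libraries. Got1 had 209, 220.0, 216 and 198 CPM in KO and 159, 172, 168 and 171 CPM in WT libraries, and Got2 had 243, 225, 237 and 241 CPM in KO and 265, 276, 262 and 270.4 CPM in WT libraries. Glud1 and Got1 were higher and Got2 lower in every KO library than in any WT library. The log2 fold changes in untreated cells were 0.40 for Glud1 (adjusted p = 1.53e-10), 0.33 for Got1 (adjusted p = 1.73e-08) and -0.18 for Got2 (adjusted p = 3.76e-05). With H2O2 they were 0.47, 0.37 and -0.16, all called.

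In H2O2-treated cells 15 of the 32 genes were higher and 8 lower in KO than in WT cells, 71.9% of them against 65.4% of all genes tested (33% higher and 32.4% lower). Groups did not overlap for 22 of the 32, against 66.4% of all genes. Only Suclg2 was called and changed by at least 1.5-fold, against 25.4% of all genes, and against a fold of 1.2, 8 genes were higher and 2 lower (18.7% and 18.3% of all genes). The number lower was 5 without KO replicate 7 or without WT replicate 14. The median log2 fold change was 0.12, against 0.00 over all genes. Across the untreated and the treated comparison, which use different libraries, 14 genes were higher in both, 5 lower in both and 0 were called in opposite directions. Over all 13085 genes, 29.8% were higher in both, 28.7% lower in both and 3 genes were called in opposite directions, and the counts among the 32 are read against these. Pdhx and Pdp1 were called in untreated cells alone, Pck2, Dlat, Pdp2 and Acly with H2O2 alone, and 7 in neither. Of these, Dlat, Pdp2 and Acly lost their call on leaving out single libraries. Dlat (-0.10, adjusted p = 0.0368) was lost without KO replicate 7 or 8 or WT replicate 14 or 15, with adjusted p of 0.0606, 0.145, 0.0925 and 0.0644 in that order. Pdp2 (-0.20, adjusted p = 0.0423) was lost without KO replicate 5 (0.239) or 8 (0.141) or WT replicate 14 (0.115) or 16 (0.0952). Acly was lost without KO replicate 5 (0.150) or 7 (0.108) or WT replicate 10 (0.0545), 14 (0.0854), 15 (0.0526) or 16 (0.148). No gene was shown to differ between the treatments in its genotype effect: the interaction called 0 of 32 and 0% of all genes. Over all genes, DESeq2 called 2 higher and 8 lower in the interaction, and edgeR without the filter 1 higher and 4 lower, none of them among the 32.

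Ratios between partner genes within a library do not depend on library scaling, and 12 were formed from the deposited RPKM values. KO was compared with WT within treatments by an exact two-sided permutation test over the libraries, with Benjamini-Hochberg adjustment over the 12. In 9 the ratio differed, and in 3 of these the first gene gained on its partner. The smallest p the 2450 arrangements allow is 0.000408, adjusted 0.0007, and 7 of the 9 reached it. With 66.8% of all genes called between untreated KO and WT cells, and no other pairs of genes examined, nothing particular to these pairs is read from the 9 of 12.

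Relative to its mitochondrial partner, the cytosolic transcript was lower in KO cells for the malate enzymes and higher for isocitrate dehydrogenase and aspartate aminotransferase. In untreated cells Me1/Me2 was 0.357 ± 0.0106 in KO and 0.663 ± 0.0282 in WT cells, and Mdh1/Mdh2 was 0.538 ± 0.0487 in KO and 0.887 ± 0.0649 in WT cells. The mean log2 differences over both treatments were -0.91 and -0.68. Idh1/Idh2 was 0.407 ± 0.0472 in KO and 0.261 ± 0.0210 in WT cells, and Got1/Got2 was 1.78 ± 0.135 in KO and 1.24 ± 0.0364 in WT cells. Their mean log2 differences were 0.57 and 0.52. No KO library overlapped a WT library of the same treatment in these 4 ratios.

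Among subunits, Sucla2/Suclg2 was 0.273 ± 0.0110 in untreated KO and 0.448 ± 0.0167 in untreated WT cells, a mean log2 difference of -0.73. Ogdh/Dlst differed by -0.25 and Pdha1/Pdhb by 0.14 (adjusted p = 0.00184). The kinase ratio Pdk3/Pdk1 differed by -0.34. Idh1/Idh3a differed by -0.12 (adjusted p = 0.0430), and this call was lost on leaving out any 1 of 11 libraries, with adjusted p of 0.0571 to 0.101, and kept without KO replicate 4 or 7 or WT replicate 9 or 14. Pdk1/Pdk2 (adjusted p = 0.137), Pdp1/Pdp2 (0.675) and Acly/Cs (0.729) did not pass, and Pdk1/Pdk2 passed without WT replicate 9 (0.19, adjusted p = 0.0403). With H2O2 against untreated, 0 of the 12 ratios passed, and the smallest adjusted p was 0.385.

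**Figure D3:**
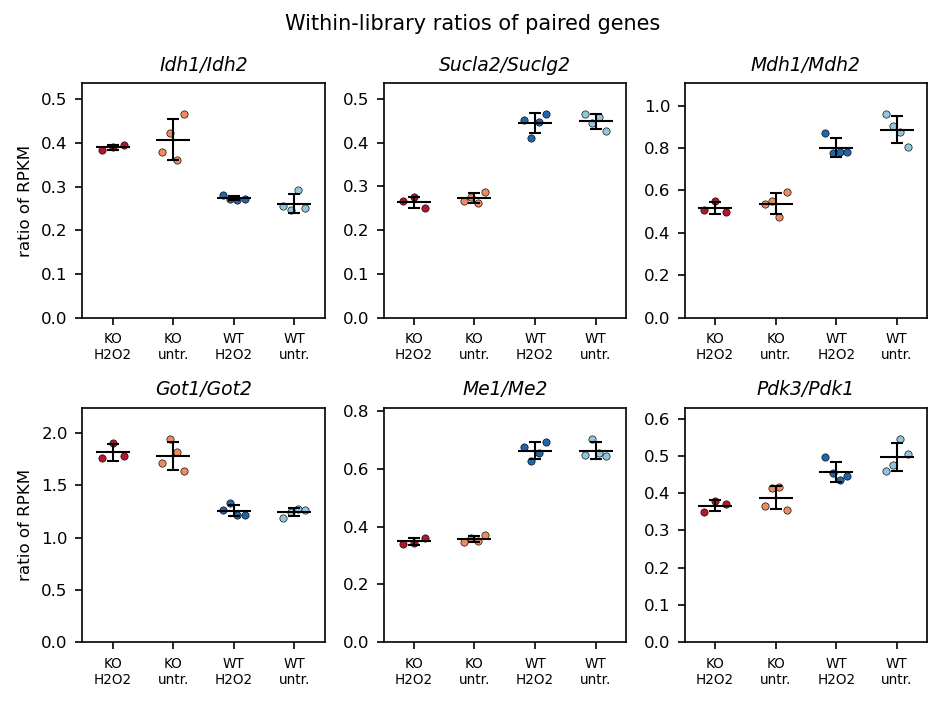
Ratios of RPKM between partner genes in every library, in panels by pair with the axis starting at 0, with the groups along the horizontal axis, a long line at the mean and bars for the SD. Me1/Me2, Mdh1/Mdh2 and Sucla2/Suclg2 lie lower in KO libraries, Idh1/Idh2 and Got1/Got2 higher, and the treatment moves none of them past the test.

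None of the genes passed the test for an effect of H2O2, in either genotype. In KO cells 0 of 32 were called, against 0.0535% of all genes (0 higher and 7 lower), and in WT cells 0 of 32, against 0.0153%. The calls over all genes depended on the tool, with 12 higher and 25 lower in KO cells under DESeq2, and on single libraries, with 0 without KO replicate 8, 1 without KO replicate 4, 4 without KO replicate 5, 18 without KO replicate 3 and 21 without WT replicate 15. In WT cells the 2 calls became 0 without KO replicate 5 or WT replicate 9, 10, 11, 14, 15 or 16, and were 6 without KO replicate 4, 7 without WT replicate 13 and 13 without WT replicate 12. Among the 32, DESeq2 also called 0 in either genotype and in the interaction, with adjusted p unset for 5 genes in KO and 1 in WT cells. At an unadjusted p under 0.05 there were 3 genes in KO cells, 3 in WT cells and 2 in the interaction, against 1041, 847 and 808 of all 13085 genes, and they are named here after their values were seen. Without WT replicate 9 these were 3, 2 and 1 genes. In KO cells Pcx had a log2 fold change, treated over untreated, of 0.22 (adjusted p = 0.212), Pck2 0.14 (0.429) and Dlat -0.09 (0.571). In WT cells Mdh1 had -0.15 (adjusted p = 0.485), Me1 -0.11 (0.705) and Me2 -0.11 (0.646). The Pcx values are 61.5, 57.4 and 56.2 CPM in treated KO and 50.01, 51.5, 52.6 and 45.8 CPM in untreated KO libraries, which did not overlap. Pcx was not alone in this. Treated and untreated libraries also did not overlap for Dlat in KO cells, which was lower with H2O2. In WT cells 4 genes did not overlap, all lower with H2O2: Mdh1, Me2, Dlat and Pdp1. The share of all genes without overlap is not given for these comparisons, so nothing is read from these counts. In the interaction, KO effect minus WT effect, Pck2 had 0.21 (adjusted p = 0.670) and Pcx 0.18 (0.806).

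A p that misses the threshold does not show that a gene did not respond, so the intervals matter. The 95% intervals of the treatment effect lay within a 1.2-fold change either way for 30 of the 32 genes in KO cells, the others being Pcx and Pdp2, and for 31 in WT cells, the other being Pdk2. For the interaction 23 lay within it. Over the 32 genes the log2 effect lay between -0.15 and 0.22 in KO and between -0.19 and 0.09 in WT cells.

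**Figure D4:**
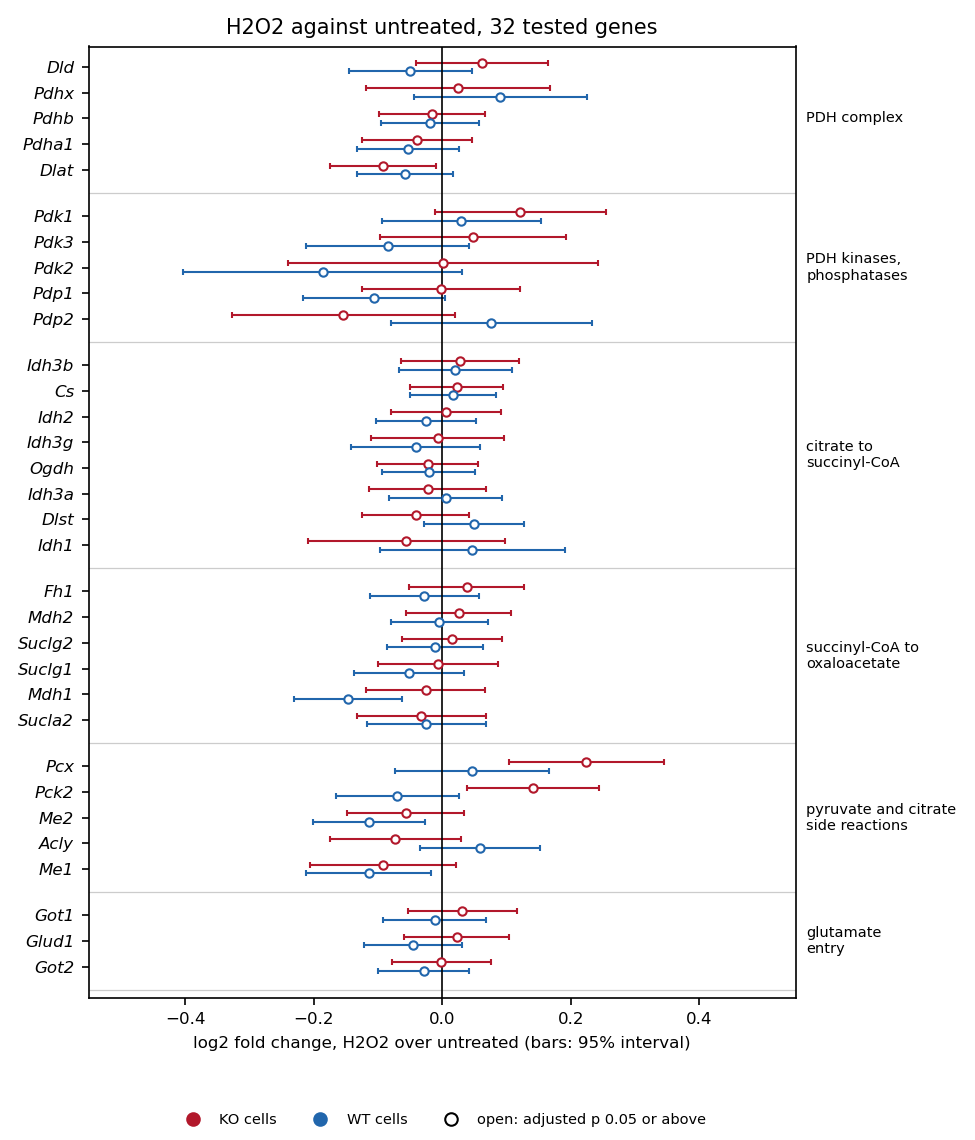
Log2 fold change, H2O2 over untreated, of the 32 tested genes in KO and in WT cells, with 95% intervals. All points are open, since no gene passed, and the points lie between -0.19 and 0.22.

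Per length, Glud1 was the most abundant of the 33 transcripts, at 468 ± 17.3 RPKM in untreated KO and 361 ± 14.9 RPKM in untreated WT cells, and Mdh2 had rank 2, at 164 ± 5.25 and 157 ± 6.40 RPKM. Mdh1 had rank 6 in KO cells, at 88.2 ± 5.67 RPKM, and rank 3 in WT cells, at 139 ± 6.04 RPKM. The gene lengths behind the RPKM values are not stated. Those implied for Glud1 (863 bases) and Fh1 (1042 bases) are below their coding lengths of 1674 and 1521 bases, so the order between genes is approximate, while each gene's comparison between groups does not depend on it. The median coefficient of variation between replicates was between 3.00% and 4.21% in the 4 groups.

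Genes next to these steps, 53 in 6 lists, also went both ways. Of 47 tested, 9 were higher and 17 lower in untreated KO cells (55.3% called, against 66.8% of all genes). Under H2O2, 13 of the 47 were higher and 18 lower in KO cells, where 65.4% of all genes were called. The difference between the untreated and treated counts was not tested, so no effect of H2O2 is read from it. By list, in untreated cells, the aconitases, succinate dehydrogenase and other cycle genes had 1 higher and 6 lower of 12, pyruvate and lactate genes 2 and 2 of 6, lipoylation genes 1 and 2 of 8, glutamine genes 4 and 3 of 11, carriers 0 and 1 of 5, and acetyl-CoA genes 1 and 3 of 5. Of the genes called with an absolute log2 fold change of at least 0.5, 5 were lower. Ogdhl, a relative of Ogdh, had 0.187 ± 0.151 CPM in KO and 4.29 ± 0.615 CPM in WT cells (log2 fold change -4.45, adjusted p = 3.22e-13). It reached at most 0.411 CPM in untreated KO libraries and passed the filter through WT libraries alone. Its fold and p therefore rest on KO counts near 0, and the size of the fold is uncertain. Dhtkd1, the lysine-pathway dehydrogenase, had 0.289 ± 0.211 and 0.752 ± 0.175 CPM (-1.34), both very low and overlapping. Me3, a mitochondrial NADP malic enzyme, had 2.31 ± 0.362 CPM in KO and 6.30 ± 0.692 CPM in WT cells (-1.44), and Gpt, an alanine aminotransferase, 6.07 ± 1.11 and 24.1 ± 1.26 CPM (-1.98). Crat, carnitine acetyltransferase, had 59.5 ± 4.87 CPM in KO and 104 ± 3.42 CPM in WT cells (-0.80). The 2 that rose were Glul, glutamine synthetase, with 59.6 ± 1.01 CPM in KO and 36.5 ± 1.48 CPM in WT cells (0.71), and Acat1, mitochondrial acetoacetyl-CoA thiolase, with 118 ± 7.10 and 82.8 ± 1.26 CPM (0.50).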

How the data were processed

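RNA from 15 libraries of 6DT1 cells was made into TruSeq Stranded mRNA libraries and read from both ends on a NextSeq instrument, as the labels' protocols say. The authors deposited a table of expected counts by gene symbol, made with cutadapt, STAR and RSEM on mm10, per the submitters' processing notes. These give no versions, annotation or strand setting, and all the deposited expected counts are whole numbers. A second deposited table gives RPKM, scaled by gene length and depth, with the lengths not given in the sources used here, and it was used for levels between genes and for ratios.

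Counts were tested with edgeR 4.0.16 (limma 3.58.1) in R 4.3.3. filterByExpr kept 13085 genes with 99.9% of the counts. After TMM scaling, a robust quasi-likelihood model with a mean for each of the 4 groups left 11 residual degrees of freedom. Adjusted p-values are Benjamini-Hochberg over all genes tested, and a call is an adjusted p under 0.05. CPM are TMM-scaled, SE of log2 fold changes is approximate, and intervals are at 95%. At 12.3 to 16.0 M counts a library, the common biological coefficient of variation was 4.96%. Limits from a count of 0 cover counting error only. The scripts were tested on simulated data. For untreated KO against WT, with changed genes drawn from all tested genes, 25 of 50 changes of 1.2-fold were recovered. Of 50 each, 40 were recovered at 1.5-fold, 46 at 2-fold and 50 at 4-fold, with 4 false calls. Small changes can therefore be missed. Ratios were tested by exact permutation of libraries within strata in Python 3.11.15. Near-identical copies were found with BLAST 2.17.0 as matches of at least 200 bases and 90% identity to the coding sequence. Positions are from GENCODE M21 on mm10.

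The members and lists were chosen with earlier results of these data known. By rule, all 33 genes are named, values in every library are given for members called in untreated cells with an absolute log2 fold change of at least 0.5, and genes of the other lists are named at that size. Members with smaller changes whose libraries are all given were chosen after their values were seen. Alternatives were RLE and upper-quartile scaling, DESeq2 1.42.0, no filter, fits of only the groups compared, glmTreat against a fold of 1.2, ratios of counts, and leaving out each library. Adding the counts of near-identical copies and leaving out KO replicate 4 and WT replicate 9 together were added after seeing the data. The labels hold no replicate 6.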

Additional observations from a re-analysis of the deposited data

Results flagged for a closer look

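Dixon's test at the 95% level was applied within groups of 4 libraries, and 5 of 132 groups examined (3.79%) held a library set apart, where chance gives about 5%. Idh3b stood at 153.3 CPM in untreated KO replicate 2, against 160.4 to 161.3 CPM in the other untreated KO libraries. Untreated WT replicate 9, the library with the conflicting genotype field, was apart for 2 of the 3 succinyl-CoA synthetase genes: Suclg1 stood at 95.99 CPM there, against 90.62 to 91.13 CPM in the other untreated WT libraries, and Suclg2 at 152.4 CPM, against 163.1 to 164.1 CPM. Its Suclg2 level lay farther from the KO range than those of the other WT libraries. Dlat stood at 91.13 CPM in untreated WT replicate 11, against 88.85 to 89.17 CPM in the others of that group. The Mdh1/Mdh2 ratio was 0.8691 in H2O2-treated WT replicate 13, against 0.7765 to 0.7828 in the other 3 libraries, all above the H2O2-treated KO libraries.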

How the results depend on the processing

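No member reversed its called direction under any alternative, and the largest shift of the median of all genes was a log2 value of -0.02. Against a 1.2-fold change instead of no change, 8 members were higher and 2 lower in untreated KO cells, and 8 higher and 2 lower with H2O2. Leaving out single libraries gave 14 to 16 members higher and 6 to 6 lower in untreated KO cells, 15 to 16 higher and 5 to 8 lower with H2O2, and 0 to 0 in the H2O2 contrasts and the interaction. The log2 difference of Idh1/Idh3a then lay between -0.16 and -0.10, and that of Pdk1/Pdk2 between 0.087 and 0.19. The causes were not tested. Mdh2 in untreated cells also lost its call under upper-quartile scaling (adjusted p = 0.0580), without the filter (0.0700) and with 2 groups in the fit (0.0542). With H2O2, Pdp2 lost it under DESeq2 (0.0662) and Dlat without the filter (0.101), while Pdk1 gained one with 2 groups in the fit (0.0168). Over all genes, the calls for H2O2 were 0 higher and 7 lower in KO cells and 2 in WT cells, against 12 and 25 in KO and 9 in WT cells under DESeq2, 7 and 20 in KO and 12 in WT cells without the filter, and 4 and 3 in KO and 0 in WT cells with 2 groups in the fit. The interaction called 0, against 10 under DESeq2 and 5 without the filter. Leaving out single libraries gave 0 to 21 calls in KO cells, 0 to 13 in WT cells and 0 to 3 in the interaction. No paired analysis was possible because the replicate numbers, 1 to 16, are not shared between groups. At this depth Pdk4 was not detectable.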
